A study of Mus musculus with 24 samples.

Results

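The comparison described here is that of kidneys from 6 male and 6 female C57BL/6J mice, an inbred laboratory strain, all 10 weeks old and with food and water freely available. These 12 libraries were taken by group from the 24 of the series, and the question is which functions of the nephron differed between the sexes at baseline on autosomal genes. The other 12 libraries, used here only to see whether the difference recurred, came from 7 males and 5 females of the same strain and age kept 9 to 11 h without water. Collection took place around midnight (within 1 h), when the mice had been active for 6 h, and RNA from part of a kidney was sequenced after selection of polyadenylated RNA. The labels number the libraries within a group and describe treatment of mice, which is read here as 1 mouse per library. They give no stage of the female cycle, and a piece of kidney can hold more or less cortex.

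Each nephron begins at a glomerulus, whose podocytes form the filter, and goes on through a proximal tubule that takes back glucose, phosphate, amino acids and sodium and secretes organic anions and cations. The thick ascending limb, distal convoluted tubule and collecting duct then set the final salt, acid and water content of the urine. In mice the proximal tubule, above all its last segment S3, is a known site of androgen action on gene expression, and the proximal tubule also holds most of the drug-metabolizing enzymes of the organ.

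The 6 male libraries held 16329973 to 24534613 reads assigned to genes and the 6 female libraries 19913110 to 29398960. All values below are counts that the authors divided by a size factor for each library. Xist, the X-inactivation transcript, lay between 16.5 and 50 in the males and between 8068 and 11988 in the females, and the Y-linked Ddx3y between 1125 and 1264 in the males and between 1.49 and 4.12 in the females, so all 12 libraries matched their sex label. All listed markers of the tubule segments, podocytes and endothelium were in the table, and 3 of 10 markers of the adjacent adrenal cortex. Watered female 6 stood apart, with 1.90% of its reads on the unnamed gene ENSMUSG00000119584, against 0.521% to 0.541% in the other females and 0.336% to 0.85% in the males. Watered male 5 lay nearest to the females in many genes, and results are given with and without it further on.

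The kidneys of the sexes differed in a large part of their autosomal transcripts. Of 16968 autosomal genes tested, 5192 differed between watered males and watered females (limma, Benjamini-Hochberg adjusted p below 0.05), which is 30.6% of those tested. They divided into 2728 genes higher in males (16.1%) and 2464 lower in males (14.5%), and 769 (4.53%) differed by at least 2-fold, 382 higher (2.25%) and 387 lower (2.28%). Most differences were small, with a median absolute log2 difference of 0.44 among the genes called. At the far end, 56 genes were at least 8-fold higher in males and 48 at least 8-fold lower. The values of the sexes did not overlap for 650 of the 769 genes, against 22.5% of all tested genes without overlap. Without watered male 5 the calls were 5257, with 390 genes at least 2-fold higher and 409 at least 2-fold lower, and without the 4 libraries richest in the unnamed gene (watered female 6 and 3 deprived mice) they were 7152, with 401 and 384. The first principal component of the 12 libraries held 52.5% of the variance and separated the sexes.

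The normalization bears on the split into higher and lower genes. Size-factor normalized totals were 20936735 to 22303952 in the males and 19192162 to 20380618 in the females, without overlap, and the genes at least 2-fold higher in males took 6.18% to 7.46% of the reads of males and 2.2% to 2.56% of those of females. The genes at least 2-fold lower in males took 0.359% to 0.486% of male reads and 1.59% to 1.69% of female reads. Scaling each library to its autosomal total shifted the median log2 difference of all tested genes to -0.17, against -0.02 as normalized, and changed the calls to 1447 higher and 5146 lower in males, so that 21.9% of calls were higher, against 52.5%. Small differences of single genes are therefore read relative to that shift. Counts of a transport, metabolism or detoxification list are given with the other scaling where their direction turned or they moved by over 1.5 times. That scaling gave 312 genes at least 2-fold higher and 551 at least 2-fold lower.

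Among the genes highest in males, transporters of S3 and enzymes of lipid and drug metabolism led. Slco1a1, an organic anion transporter of the apical membrane of S3 (chr6:141907282-141946962 in GRCm38 with GENCODE M21, as for all gene positions), had 6031, 9131 and 9716 normalized counts in males (lowest, median and highest, as in the values that follow) and 13.9, 20.2 and 25.9 in females. The groups were far apart, with a log2 difference of 8.67 ± 0.25 (SE, limma adjusted p = 1.68e-19), the largest rise of any gene named. Slc7a13, a cystine and acidic amino acid transporter of S3 (chr4:19818725-19842218), had 21005, 25114 and 27478 in males and 67.2, 94 and 124 in females, a difference of 8.07 ± 0.14 (limma adjusted p = 1.13e-24). Acsm3, a mitochondrial enzyme that activates medium-chain fatty acids (chr7:119760923-119787513), had 16469.9, 17350.2 and 20553 in males and 109, 143 and 162 in females, a difference of 6.97 ± 0.11 (limma adjusted p = 7.12e-26). None of these genes showed any overlap between the sexes. Cyp7b1, which hydroxylates oxysterols and steroids (chr3:18071950-18243338), had 3678, 4076 and 5051 in males and 53.7, 59.8 and 64.4 in females, a difference of 6.12 ± 0.10 (limma adjusted p = 7.18e-26). Cyp2j13, of the epoxygenase family of P450 enzymes (chr4:96027534-96077546), had 4459, 8022 and 8547 in males and 21.3, 27.8 and 49.8 in females, a difference of 7.90 ± 0.20 (limma adjusted p = 2.18e-20). Its lowest male value was that of watered male 5, and the other 5 males lay between 7100 and 8547. Further large rises were those of Pzp, an alpha-2-macroglobulin type protease inhibitor (7.18 ± 0.20), the glucuronosyltransferase Ugt2b37 (6.51 ± 0.21), the fatty acid hydroxylase Cyp4a12a (5.15 ± 0.17), the organic anion transporter family member Slc22a30 (4.66 ± 0.19), the ethanol-oxidizing Cyp2e1 (3.94 ± 0.11) and Ugt2b38 (3.89 ± 0.15), all on the log2 scale with limma adjusted p at or below 2.48e-16. Mpped1, a phosphoesterase family member (5.98 ± 0.32), Apoh, beta-2-glycoprotein I (5.89 ± 0.33), Hrg, histidine-rich glycoprotein (5.22 ± 0.29), and Col6a6, a collagen VI chain (4.92 ± 0.24), completed the 15 largest rises among genes with a mean of at least 50, leaving out gene models without a name. In females these last 4 genes had medians of only 2.30 (Mpped1), 2.72 (Apoh), 4.42 (Hrg) and 3.69 (Col6a6), so that their fold depends on the value of 1 added before the log.

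The genes lowest in males were again transporters and enzymes, with a hormone receptor among them. Ugt1a2, a glucuronosyltransferase (chr1:88200601-88218997), had 28.9, 43.9 and 78.2 normalized counts in males and 9979.7, 12593 and 12945 in females, a log2 difference of -8.00 ± 0.37 (limma adjusted p = 2.89e-14). The genes of the Ugt1a locus share their later exons, so that the counting may divide reads among them. Slc7a12, a neutral amino acid transporter (chr3:14480697-14505830), had 41, 102 and 122 in males and 4137, 5604 and 5909 in females, a difference of -5.85 ± 0.28 (limma adjusted p = 1.99e-14). Abcc3, the basolateral efflux pump MRP3 for conjugated organic anions (chr11:94343295-94392997), had 56.8, 76.2 and 99.7 in males and 2334, 3299.9 and 4678 in females, a difference of -5.43 ± 0.15 (limma adjusted p = 3.84e-20). The sexes did not overlap for any of these genes. Cyp4a14, a fatty acid hydroxylase (chr4:115486200-115496142), had 249, 455 and 2467 in males and 13078, 15287 and 18002 in females, a difference of -4.72 ± 0.46 (limma adjusted p = 2.04e-08). Its highest male value was again that of watered male 5, and the other 5 males lay between 249 and 681. Prlr, the prolactin receptor (chr15:10177238-10349180), had 238, 313 and 531 in males and 4923, 5549.8 and 6296 in females, a difference of -4.09 ± 0.15 (limma adjusted p = 1.79e-17). Bhmt, which remethylates homocysteine with betaine (-3.51 ± 0.16), the carbonyl reductase Cbr1 (-3.49 ± 0.09), Slc17a2, of the type I phosphate transporter family (-6.11 ± 0.43), and Slc22a29 (-3.83 ± 0.16) also fell, with limma adjusted p at or below 1.97e-11. Tmprss6, the matriptase-2 protease (-5.17 ± 0.33), the transport ATPase Atp13a4 (-5.09 ± 0.44), Igf2, insulin-like growth factor 2 (-4.46 ± 0.46), Ugt1a10 (-3.42 ± 0.26), Ly6f (-3.27 ± 0.26) and Myh1, a fast skeletal muscle myosin (-6.00 ± 0.36), completed the 15 largest falls by the same limit. Myh1 had 1.11, 2.78 and 5.2 in males and 198, 241 and 276 in females, without overlap. Slc17a2 had 4 to 10.3 in males, and Atp13a4 10.3 in watered male 5 and 0 to 3.23 in the other 5 males. The fold of these 3 genes thus depends on the value of 1 added before the log. Another fast muscle gene, Mylpf, chosen after its values were seen, fell with overlap (-0.69, limma adjusted p = 0.0132).

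**Figure D1:**
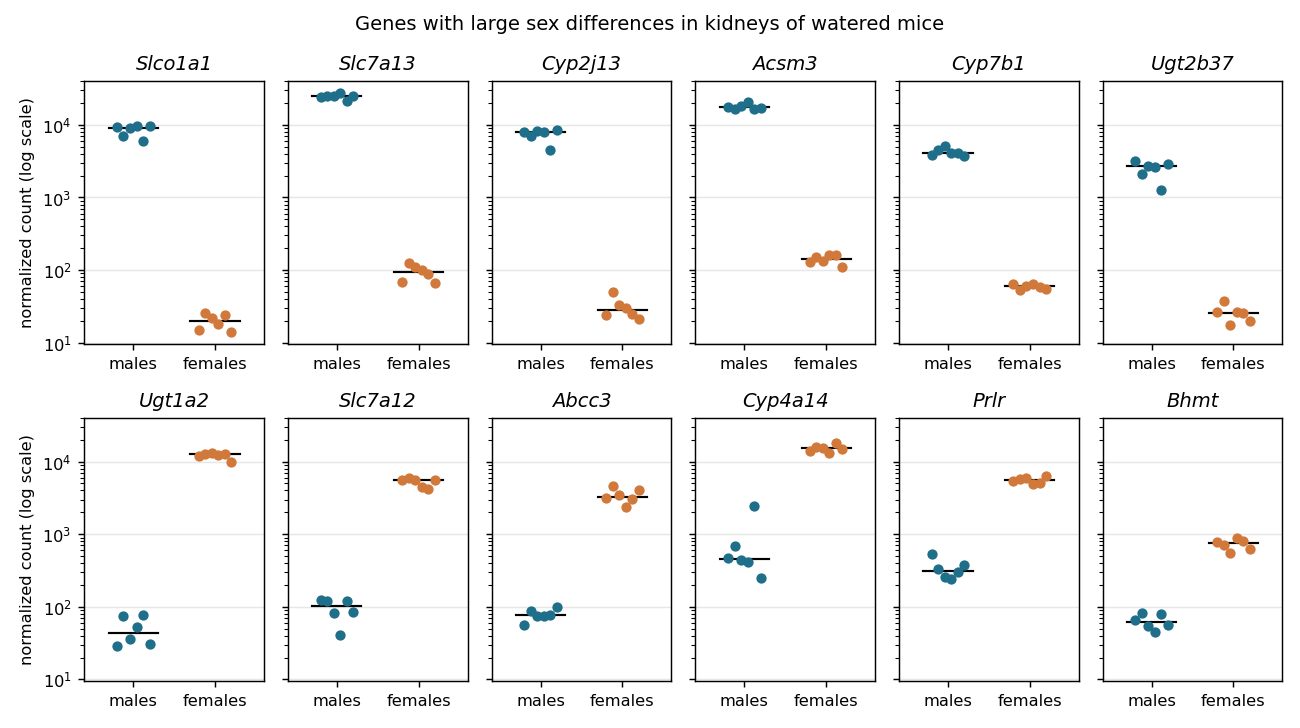
Normalized count of 12 genes in each of the 6 watered males (blue, left) and 6 watered females (orange, right), on a log axis shared by all panels, with the black line at the median of each group. The upper 6 genes are higher in every male than in every female and the lower 6 genes lower, and watered male 5 is the male nearest to the females for Cyp2j13 and Cyp4a14.

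Transport, metabolism and detoxification, taken as lists of genes, differed in how many members were called and in which direction. Of 222 tested transport genes, 40 rose and 77 fell in males, with a median log2 difference of -0.15, and 10 and 9 did so by at least 2-fold (29 rising and 117 falling with scaling to the autosomal total). Of 260 metabolic genes, 97 rose and 54 fell (median 0.07), 21 and 20 by at least 2-fold, a direction that turned to 62 rising and 74 falling with scaling to the autosomal total. Of 206 detoxification genes, 85 rose and 44 fell (median 0.15), 32 and 19 by at least 2-fold, and with that scaling 68 rose and 66 fell. Thus 52.7% of the transport, 58.1% of the metabolic and 62.6% of the detoxification genes were called, against 30.6% of all genes, and 8.56%, 15.8% and 24.8% were called with at least 2-fold, against 4.53%. The lists were chosen with earlier results of these data known, so part of the excess over all genes can come from that choice. Abundance, which bears on what can be called, was not matched between the lists and all genes. The shares are given as a description without a test.

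**Figure D2:**
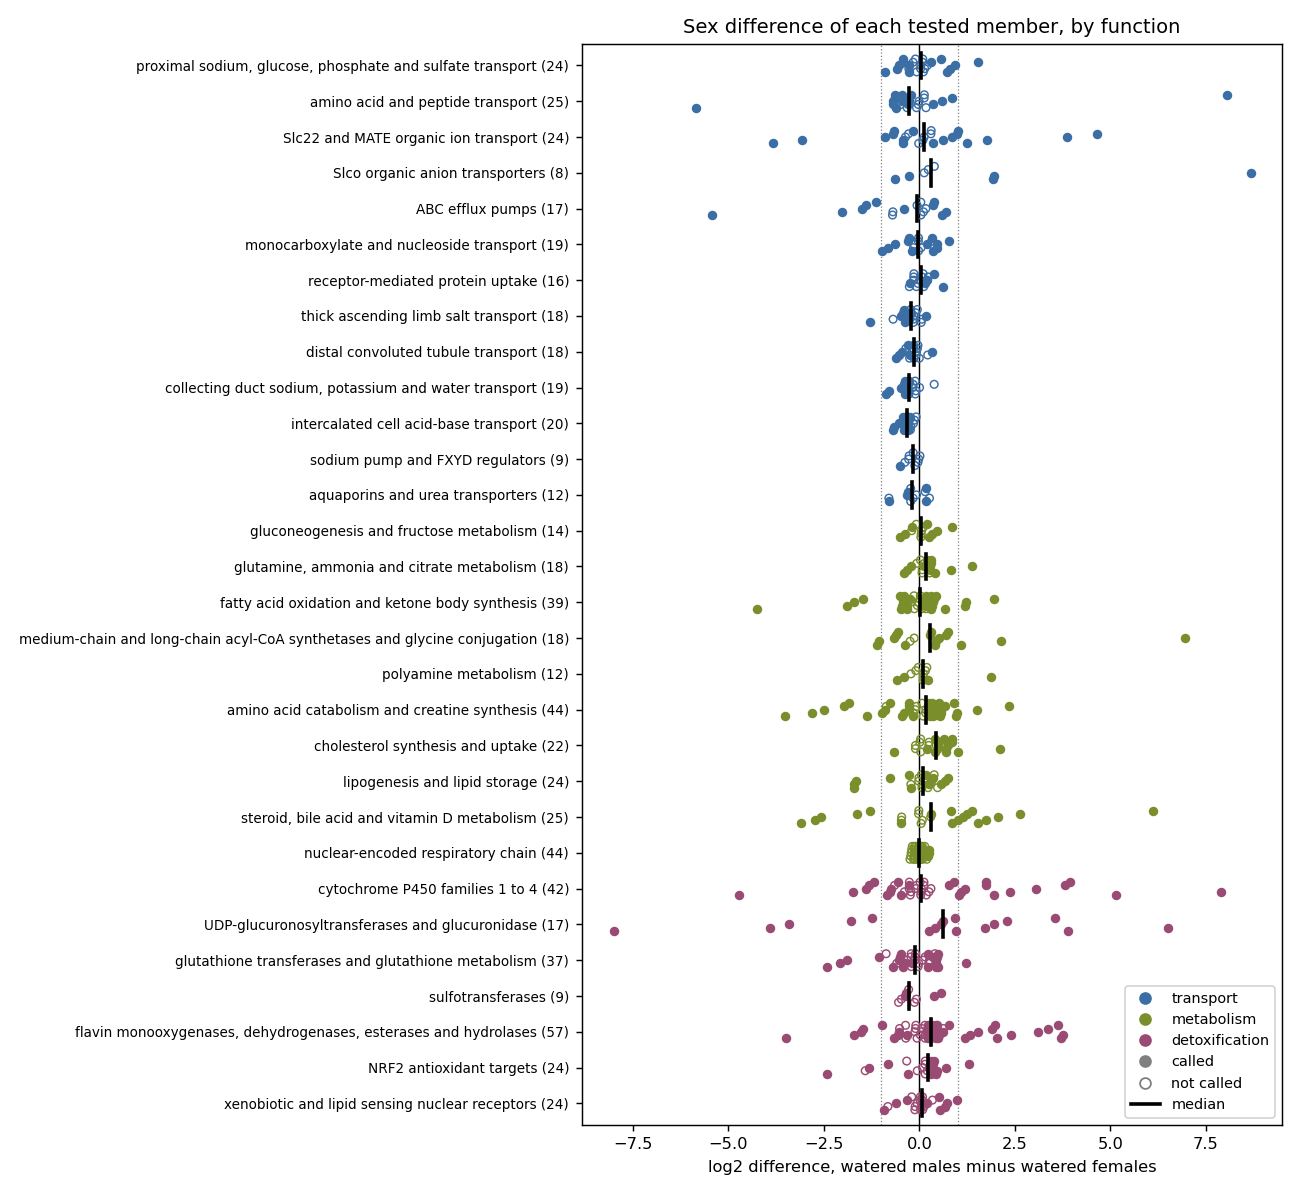
Log2 difference between watered males and watered females of every tested gene in 30 lists of transport (blue), metabolism (olive) and detoxification (plum), with the number tested after each name. Filled points are called, open points are not, black bars are list medians, and dotted lines mark 2-fold. Organic ion transporters, P450 enzymes and glucuronosyltransferases reach far out on both sides, whereas the respiratory chain stays within a narrow range.

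Among 24 tested transporters of organic anions and cations, the Slc22 family and the MATE exporters, 9 rose and 8 fell in males (median 0.11), 5 and 2 of them by at least 2-fold. Scaling to the autosomal total gave 8 rising and 10 falling (median -0.04). The share past 2-fold was 29.2%, against 8.56% of all transport genes and 4.53% of all genes. Slc22a6, the basolateral OAT1 that takes up para-aminohippurate (chr19:8618039-8628299), had 15312, 21589 and 22882 in males and 8266, 8534 and 9926 in females, a log2 difference of 1.24 ± 0.09 (limma adjusted p = 6.71e-12). Its neighbour Slc22a8, the other main basolateral anion exchanger OAT3 (chr19:8591254-8611835), had 8649, 8943 and 10045 in males and 13676, 14519.5 and 15281 in females, a difference of -0.67 ± 0.06 (limma adjusted p = 1.32e-09). The 2 genes thus moved in opposite directions, each without overlap of the sexes. Slc22a12, the apical urate exchanger URAT1, had 23114, 26223 and 28375 in males and 12129, 12957 and 13838 in females, a difference of 1.00 ± 0.12 (limma adjusted p = 2.04e-07). The cation uptake transporter Slc22a2 (0.99 ± 0.06) and the exporter Slc47a1 (0.62 ± 0.07), which pass organic cations through the cell, both rose, as did the prostaglandin transporter Slc22a22 (1.77 ± 0.09), all with limma adjusted p at or below 6.06e-08. Of 8 Slco transporters tested, 3 rose and 2 fell (median 0.31), 62.5% called against 30.6% of all genes. Beside Slco1a1, Slco3a1 (1.94 ± 0.08) and Slco4c1 (1.92 ± 0.09) rose without overlap, and the prostaglandin transporter Slco2a1 fell (-0.63 ± 0.07).

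The ATP-driven efflux pumps that differed by 2-fold or more were all lower in males. Among 17 pumps tested, 4 rose and 6 fell, 58.8% called against 30.6% of all genes. All 5 with at least 2-fold were lower, 29.4% of the list against 4.53% of all genes. Abcb1b, a mouse form of the multidrug pump P-glycoprotein, had 168, 191 and 227 in males and 673, 769 and 915 in females, a log2 difference of -2.02 ± 0.13 (limma adjusted p = 7.82e-13). Its paralog Abcb1a (-1.51 ± 0.13) and the neighbouring Abcb4, the phospholipid pump (-1.13 ± 0.33), also fell, as did Abcc4, the apical pump MRP4 that exports urate and cyclic nucleotides (-1.39 ± 0.11). Abcc2, the apical pump MRP2 (0.69 ± 0.16), and Abcg2, the apical breast cancer resistance protein (0.35 ± 0.06), were higher in males, by less than 2-fold. Abcb4 overlapped between the sexes, and in deprived mice its difference was 0.29 (limma adjusted p = 0.546).

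On chromosome 19, members of the Slc22 family lie side by side and alternated in direction. From Slc22a19, whose start lies at -420.7 kb from that of Slc22a28, to Slc22a6 at 486.1 kb, the tested family members were in turn lower and higher in males at every step. Slc22a28 (chr19:8062209-8131982, minus strand) had 3358, 3992 and 4140.1 in males and 195, 274 and 364 in females, a log2 difference of 3.85 ± 0.14 (limma adjusted p = 2.28e-17). Slc22a29 (chr19:8160165-8218900, minus strand), the next gene, had 53.5, 68.1 and 113 in males and 961, 1036 and 1107 in females, a difference of -3.83 ± 0.16 (limma adjusted p = 3.37e-16). Slc22a30 (chr19:8335371-8405111, minus strand), the gene after that, had 4358, 5915 and 6068 in males and 126, 215 and 346 in females, a difference of 4.66 ± 0.19 (limma adjusted p = 2.48e-16). The outer genes were thus high in males and the inner one high in females, in every mouse. Slc22a27, before them, had 1, 5.35 and 8.67 in males and 37.1, 46.8 and 62.3 in females (-3.07 ± 0.41, limma adjusted p = 1.24e-06), Slc22a26 differed by 0.86 ± 0.23 with overlap (deprived mice 0.02), and Slc22a19 by -0.91 ± 0.10 without. Paralogs as alike as these can share reads, and how the counting divided such reads was not tested.

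**Figure D3:**
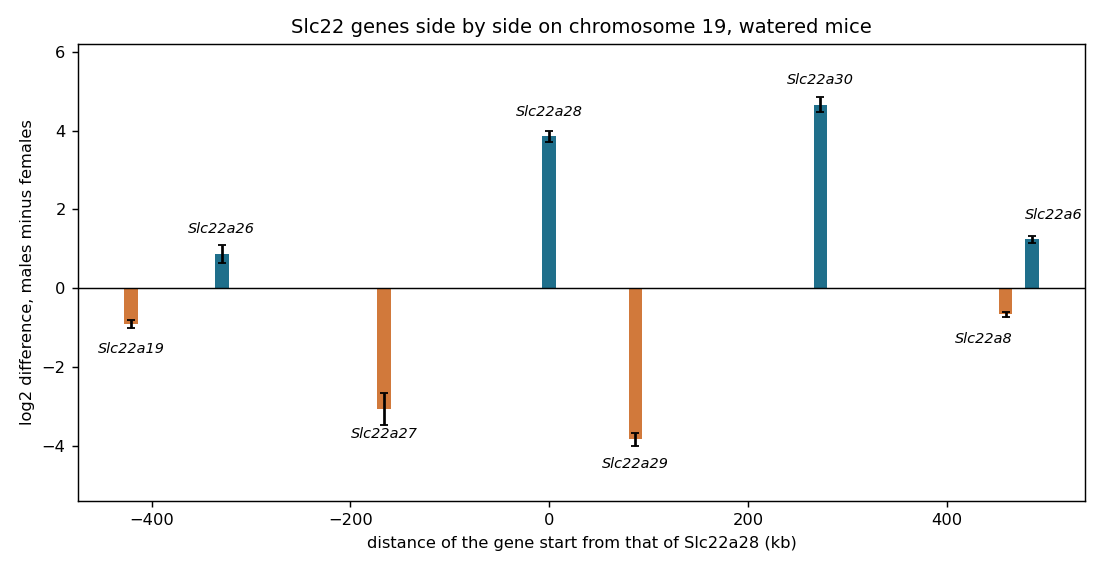
Log2 difference between watered males and watered females (bars, with SE of the fit) of Slc22 genes on chromosome 19, from Slc22a19 to Slc22a6, placed by the distance of each gene start from that of Slc22a28. Blue bars are higher in males and orange bars lower, and Slc22a28 and Slc22a30 (3.85 and 4.66) stand on either side of Slc22a29 (-3.83).

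The promoter windows of these 3 neighbouring genes are shown because 2 of them rose and 1 fell in the same kidneys. They run from 250 bases before to 50 bases after the RefSeq gene start (GRCm38.p6, minus strand, written along the strand of the gene), with the longest run of letters that all 3 hold, 22 bases, in capitals. Those of Slc22a28 (chr19:8131933-8132232), Slc22a29 (chr19:8218851-8219150) and Slc22a30 (chr19:8405056-8405355) read as follows.
Slc22a28: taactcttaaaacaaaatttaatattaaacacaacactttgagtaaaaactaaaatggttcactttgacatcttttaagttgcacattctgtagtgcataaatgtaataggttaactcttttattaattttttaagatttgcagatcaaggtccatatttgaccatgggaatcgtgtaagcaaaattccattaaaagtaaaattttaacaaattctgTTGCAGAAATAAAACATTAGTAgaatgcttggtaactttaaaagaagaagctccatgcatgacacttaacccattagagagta
Slc22a29: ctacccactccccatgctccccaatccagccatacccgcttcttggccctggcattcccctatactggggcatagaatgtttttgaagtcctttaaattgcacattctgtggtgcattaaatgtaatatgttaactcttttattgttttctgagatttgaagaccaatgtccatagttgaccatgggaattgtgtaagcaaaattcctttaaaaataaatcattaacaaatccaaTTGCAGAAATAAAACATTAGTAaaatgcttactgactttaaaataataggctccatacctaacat
Slc22a30: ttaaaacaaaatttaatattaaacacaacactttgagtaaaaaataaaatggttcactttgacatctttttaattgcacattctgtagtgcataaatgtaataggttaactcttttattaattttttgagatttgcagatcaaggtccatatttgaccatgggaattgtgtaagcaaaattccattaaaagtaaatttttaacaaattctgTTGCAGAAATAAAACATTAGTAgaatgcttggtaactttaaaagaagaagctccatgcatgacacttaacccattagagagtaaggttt
In a global alignment the windows of the 2 genes high in males were identical at 288 of 306 aligned positions (94.1%). The window of the gene high in females was identical to that of Slc22a28 at 225 of 331 positions (68%) and to that of Slc22a30 at 224 of 329 (68.1%). The shared run sits at bases 218 to 239 of the Slc22a28 window, 236 to 257 of that of Slc22a29 and 212 to 233 of that of Slc22a30. Whether the difference in sequence bears on the difference in expression was not tested.

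Short motifs were counted in the same windows of those dimorphic genes that have a single window in the RefSeq table, 201 of the 382 genes at least 2-fold higher in males and 198 of the 387 lower. The half-site of HNF1, written GTTAAT and searched on both strands, was present in 13.9% of 201 windows of genes at least 2-fold higher in males and in 14.1% of 198 windows of genes at least 2-fold lower, against 4.92% of all 9432 windows of genes with a single window. The androgen receptor half-site AGAACA was in 15.9% and 18.7%, against 12.8% of all. The STAT core TTCNNNGAA was in 7.46% and 10.1%, against 7.02%, the nuclear receptor half-site AGGTCA in 13.4% and 15.7%, against 12.7%, and the TATA box TATAAA in 11.9% and 14.1%, against 7.74%. These are counts of letters, not of binding, and overlapping motifs were each counted.

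Among 25 tested amino acid and peptide transporters, 4 rose and 12 fell (median -0.27), 64% called against 30.6% of all genes. Besides the large fall of Slc7a12 and rise of Slc7a13 given above, none of them passed 2-fold. The smaller falls included Slc7a9, the light chain of the cystine transporter b0,+ (-0.64 ± 0.05), Slc6a19, the main apical neutral amino acid transporter B0AT1 (-0.46 ± 0.09), Slc6a18 (-0.69 ± 0.07), the basolateral exchangers Slc7a8 (-0.61 ± 0.08) and Slc7a7 (-0.31 ± 0.09), and the peptide transporter Slc15a2 (-0.64 ± 0.09). Slc38a3, which carries glutamine into proximal tubule cells, fell as well (-0.69 ± 0.13), while in deprived mice its difference was 0.20 (limma adjusted p = 0.26). All 7 of these passed limma's adjusted threshold, with p at or below 0.00659. Slc16a9 rose (0.87 ± 0.07), and so did Slc36a1, a proton-coupled amino acid transporter (0.59 ± 0.10).

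Genes for bulk reabsorption of sodium, glucose and phosphate were called more often than all genes, but past 2-fold about as often. Of 24 tested genes of this group, 6 rose and 7 fell, or 6 and 11 with scaling to the autosomal total. The share called was 54.2%, against 30.6% of all genes. Only Slc5a8 was past 2-fold as normalized, 4.17% against 4.53% of all genes. Their median was 0.04, or -0.12 with that scaling and -0.02 without watered male 5. Slc5a8, a sodium-coupled monocarboxylate and lactate transporter, had 5660.5, 6506 and 6977 in males and 1958, 2139 and 2515 in females, a log2 difference of 1.55 ± 0.09 (limma adjusted p = 1.79e-13). Slc34a1, the main phosphate cotransporter NaPi-IIa, had 124803, 141607 and 154459 in males and 88040.3, 94224 and 101433 in females, a difference of 0.57 ± 0.06 (limma adjusted p = 3.56e-08), without overlap. Its paralog Slc34a3, NaPi-IIc, was lower in males (-0.27 ± 0.08), and the citrate transporter Slc13a2 fell by 0.89 on the log2 scale. The glucose transporter Slc5a2, SGLT2, had 10546, 10976 and 12385 in males and 10049.5, 10771 and 11768 in females, and the sodium-proton exchanger Slc9a3, NHE3, 2697, 3155 and 3474 in males and 2524, 2859.5 and 3131 in females. Both overlapped and did not pass (log2 differences of 0.04 ± 0.09 and 0.14 ± 0.14, limma adjusted p = 0.808 and 0.499), and their sign turned with scaling to the autosomal total and with the cortical balance as a covariate. Slc17a3 (0.94 ± 0.09) and Slc17a1 (0.81 ± 0.08), organic anion and urate transporters next to each other on chromosome 13, rose, while their neighbour Slc17a2 fell as given above. Among 19 monocarboxylate, nucleoside and vitamin transporters 6 rose and 6 fell (3 and 8 with scaling to the autosomal total), or 63.2% called. None passed 2-fold, Slc23a3 (-0.98 ± 0.12) and Slc16a4 (-0.81 ± 0.10) falling the most. Of 16 genes of receptor-mediated protein uptake 4 rose and 1 fell, a share of 31.2% that is close to the 30.6% of all genes. With scaling to the autosomal total 2 rose and 4 fell, and without the 4 libraries richest in the unnamed gene 7 rose and 4 fell. The scavenger receptors Lrp2 (-0.14) and Cubn (-0.15) did not pass (limma adjusted p = 0.51 and 0.379).

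In the segments after the proximal tubule, the transport genes that passed were mostly lower in males, and only 1 of them by 2-fold. In the thick ascending limb list 1 of 18 tested genes rose and 8 fell (median -0.23), in the distal convoluted tubule list 1 of 18 rose and 5 fell (-0.15), in the collecting duct list none of 19 rose and 10 fell (-0.27), and in the intercalated cell list none of 20 rose and 12 fell (-0.31). The share called was 33.3% in the distal convoluted tubule list, close to the 30.6% of all genes, and 50% to 60% in the other lists. With scaling to the autosomal total none rose in these lists, and 12 genes of the thick ascending limb, 9 of the distal convoluted tubule, 17 of the collecting duct and 18 of intercalated cells fell. Without the 4 libraries richest in the unnamed gene the falls were 12, 11, 14 and 16 in the same order. The chloride channel subunit Bsnd, barttin (-0.41 ± 0.06), and the tight junction protein Cldn19 (-0.48 ± 0.07) fell without overlap, with limma adjusted p at or below 1.08e-05. Slc12a1, the cotransporter NKCC2 that bumetanide blocks, had 28418, 30169 and 31662 in males and 32391, 37117 and 39941 in females, a log2 difference of -0.28 ± 0.11 that lay at the threshold (limma adjusted p = 0.0495) and missed it in 24 of 42 alternatives, though the sexes did not overlap. Slc12a3, the thiazide-sensitive cotransporter NCC, had 29759, 33142 and 42267 in males and 30391, 41062 and 47417 in females, with overlap (-0.25 ± 0.16, limma adjusted p = 0.256). It passed in 4 alternatives, with library weights, the replicate block, the cortical balance as a covariate and without the 4 libraries richest in the unnamed gene. In the collecting duct the sodium channel subunit Scnn1b fell (-0.38 ± 0.06, limma adjusted p = 7.96e-06), while Scnn1a had a difference of -0.17 ± 0.10 that did not pass (limma adjusted p = 0.215) but did so in 6 alternatives. Hsd11b2, which protects the mineralocorticoid receptor from glucocorticoids (-0.38 ± 0.07), that receptor itself, Nr3c2 (-0.41 ± 0.11), and the aldosterone-induced kinase Sgk1 (-0.87 ± 0.19) were lower in males. Among the acid-base genes of intercalated cells, the ammonia channel Rhcg (-0.35 ± 0.06), the proton pump subunit Atp6v1b1 (-0.34 ± 0.06) and the bicarbonate exchanger Slc26a4, pendrin (-0.37 ± 0.08), fell.

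No water channel or urea transporter gene was called with at least 2-fold. Of 12 aquaporins and urea transporters, 2 rose and 3 fell, 41.7% called against 30.6% of all genes. With scaling to the autosomal total none rose and 6 fell. Aqp2, the vasopressin-regulated channel of the collecting duct, had 6028, 6986 and 7937 in males and 6166, 8728 and 11258 in females, overlapping, with a log2 difference of -0.30 ± 0.12 (limma adjusted p = 0.0494) that missed the threshold in 25 of 42 alternatives. Aqp1 of the proximal tubule and thin limb differed by 0.17 ± 0.06 (limma adjusted p = 0.0217) and missed the threshold in 6 of 42 alternatives. Aqp4, on the basolateral side of principal cells, fell (-0.80 ± 0.14) without overlap. Among 9 sodium pump subunits and regulators none rose and 1 fell, the regulator Fxyd6 (-0.52 ± 0.09), or 11.1% called. With scaling to the autosomal total 5 of them fell, and 4 without the 4 libraries richest in the unnamed gene.

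Markers of some, though not all, of the cell types were also mostly lower in males. The summed podocyte markers were 7993 to 8839 in males and 10078 to 11302 in females, and 9 of 10 fell (median -0.50), among them Wt1 (-0.73 ± 0.11) and Nphs1, nephrin (-0.57 ± 0.12). Thick ascending limb markers summed to 141802 to 153766 in males and 159381 to 199010 in females, and principal cell markers to 15296 to 17105 in males and 17482 to 23567 in females, both without overlap, with 5 of 8 and 4 of 7 tested markers lower. These are 62.5% and 57.1% called, against 30.6% of all genes. With scaling to the autosomal total 7 of 8 and 7 of 7 were lower. Of the distal convoluted tubule markers 2 of 8 were lower (25%), and of the intercalated cell markers 3 of 8 (37.5%). The sums of both these lists overlapped between the sexes. The markers of S1 and S2 summed to 260820 to 301623 in males and 227016 to 249805 in females, with 2 of 10 higher and 3 lower. Their median log2 difference was -0.14, opposite in sign to the sum, which follows the most abundant members. The list of S3, which holds Slc7a13 and Cyp7b1, summed to 103058 to 127886 in males and 56415 to 66032 in females. Of its 10 markers 5 were higher and 3 lower (median 0.86). Of the tested markers of macrophages, lymphocytes, red cells, adipocytes and urothelium, limma and edgeR called 0 and DESeq2 1 each of macrophages and lymphocytes, with 1, 2, 0, 0 and 2 at an unadjusted p below 0.05. Scaling to the autosomal total gave 1, 1, 0, 0 and 2 lower in the same order, and none higher. In RNA from whole tissue, fewer cells of a type and less RNA per cell cannot be told apart. With the balance of cortical to medullary genes as a covariate, which was 2.07 to 2.48 in males and 1.92 to 2.25 in females, the falls were 9 in the thick ascending limb, 8 in the distal convoluted tubule, 11 in the collecting duct and 13 in the intercalated cell list, against 8, 5, 10 and 12 without it. Genes behind the balance were themselves called between the sexes. The cortical list had 3 higher and 2 lower of 8 (Kap, left out of the balance, among the 8) and the medullary list 1 and 4 of 9. The covariate can thus take up part of the sex difference, and whether the share of cortex has a part in the falls was not tested.

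Of 39 tested genes of fatty acid oxidation and ketone body synthesis, 14 rose and 12 fell in males (median 0.03). As normalized, 66.7% were called, against 30.6% of all genes, and 17.9% past 2-fold, against 4.53%. With scaling to the autosomal total 9 rose and 15 fell (median -0.13). The peroxisomal oxidase Acox3 (1.19 ± 0.09), which acts on branched fatty acids, and the fatty acid uptake protein Cd36 (1.96 ± 0.09) rose by more than 2-fold. Cd36 had 8164, 11401 and 12322 in males and 2395, 2866 and 3085 in females (limma adjusted p = 8.55e-16). By contrast Pdk4, which restrains pyruvate oxidation (-1.48 ± 0.23), the thioesterase Acot3 (-1.90 ± 0.15) and Fabp1, the liver-type fatty acid binding protein (-4.26 ± 0.47), fell by more than 2-fold. Fabp1 had 0, 3.67 and 17.9 in males and 72.6, 83.6 and 112 in females, without overlap (limma adjusted p = 5.84e-08).

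Acyl-CoA synthetases and glycine conjugation rose more often than they fell. Of 18 tested, 10 rose and 6 fell (median 0.28), 88.9% called against 30.6% of all genes. Past 2-fold were 27.8%, against 4.53%. Acsm2, which activates benzoate and medium-chain acids, had 89428, 109259 and 117307 in males and 21751, 24561 and 26180.5 in females, a log2 difference of 2.14 ± 0.07 (limma adjusted p = 1.09e-18). The cytosolic acetate-activating enzyme Acss2 also rose (1.10 ± 0.05), as did Glyat, which joins the acyl group to glycine (0.70 ± 0.09). Acsl1, the main long-chain synthetase, had 5842, 6356 and 6925 in males and 12168, 13413 and 14140 in females, a difference of -1.06 ± 0.07 (limma adjusted p = 2.39e-12). Neither Acsm2 nor Acsl1 overlapped between the sexes.

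Genes of cholesterol synthesis and uptake were mostly higher in males. Of 22 tested genes, 14 rose and 1 fell in males (median 0.43), and with scaling to the autosomal total 12 rose and 4 fell. As normalized, 68.2% were called, against 30.6% of all genes, and 9.09% past 2-fold, against 4.53%. Idi1, which isomerizes isopentenyl pyrophosphate, had 1154, 1245 and 1382 in males and 254, 284 and 358 in females, a log2 difference of 2.10 ± 0.13 (limma adjusted p = 1.13e-12). Insig1 (1.00 ± 0.08), a sterol-sensing retention protein, Hmgcs1 (0.85 ± 0.08), Mvd (0.84 ± 0.08) and Sqle (0.74 ± 0.11) rose. Lipogenesis and storage were mixed, with 7 of 24 higher and 6 lower (1 and 6 with scaling to the autosomal total). As normalized, 54.2% of them were called and 12.5% past 2-fold. The largest falls were those of the desaturase Scd1 (-1.72 ± 0.17) and the elongases Elovl6 (-1.70 ± 0.12) and Elovl2 (-1.65 ± 0.11), each without overlap, and Fasn, fatty acid synthase, rose (0.56 ± 0.20), a call that was lost in 13 of 42 alternatives, edgeR and scaling to the autosomal total among them.

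Amino acid catabolism held strong differences in both directions. Of 44 tested genes 21 rose and 15 fell (15 and 17 with scaling to the autosomal total), and 6 of the 8 past 2-fold were lower in males. As normalized, 81.8% were called, against 30.6% of all genes, and 18.2% past 2-fold, against 4.53%. Hao2, a peroxisomal hydroxyacid oxidase, had 3063, 3598 and 4836 in males and 13177, 14091 and 16174 in females, a log2 difference of -1.98 ± 0.09 (limma adjusted p = 2.04e-15). Oat, ornithine aminotransferase, had 3381, 3495 and 3899.8 in males and 8928, 9235 and 9727 in females, a difference of -1.37 ± 0.05 (limma adjusted p = 4.21e-17). Together with Arg2, the mitochondrial arginase that feeds ornithine to Oat (-2.82 ± 0.17), they lay lower in every male than in every female. Kynu, kynureninase (-2.49 ± 0.15), and Hpd, of tyrosine breakdown (-1.85 ± 0.15), fell as well. Cbs, which commits homocysteine to cysteine synthesis, had 5326, 5729 and 6398 in males and 1949.6, 2035 and 2169 in females, a difference of 1.50 ± 0.07 (limma adjusted p = 1.4e-15), opposite to Bhmt, which returns homocysteine to methionine. Bcat1, the cytosolic branched-chain aminotransferase, rose (2.34 ± 0.20), and Bcat2, the mitochondrial one, fell (-0.46 ± 0.07).

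In the lists of gluconeogenesis, glutamine and ammonia metabolism, polyamines and the respiratory chain, 0% to 8.33% of genes were called past 2-fold. Of all genes 4.53% were. Of 14 gluconeogenic genes 5 rose and 3 fell (3 and 5 with scaling to the autosomal total), 57.1% called as normalized against 30.6% of all genes. Pcx, pyruvate carboxylase, had 16517, 17427 and 19243 in males and 9178, 9663 and 10576 in females, a log2 difference of 0.85 ± 0.07 (limma adjusted p = 9.46e-11). Pck1, the cytosolic carboxykinase, had 36598, 53363 and 65219 in males and 62115, 72586 and 88579.8 in females, overlapping (-0.50 ± 0.17, limma adjusted p = 0.0238, missed in 6 of 42 alternatives). Among 18 genes of glutamine, ammonia and citrate metabolism 9 rose and 3 fell (66.7% called), or 2 and 4 with scaling to the autosomal total. Me1, the cytosolic malic enzyme that makes NADPH (1.39 ± 0.06), and Ggt1, the brush border gamma-glutamyltransferase (0.82 ± 0.06), rose without overlap. Of 12 polyamine genes 2 rose and 2 fell, 33.3% against 30.6% of all genes, and with scaling to the autosomal total 1 rose and 3 fell. Without the 4 libraries richest in the unnamed gene 5 rose and 2 fell. Odc1, ornithine decarboxylase, a long-known androgen target of the mouse kidney, had 18593, 30759.9 and 34739 in males and 7075, 7735 and 8207 in females, a difference of 1.86 ± 0.12 (limma adjusted p = 3.97e-12). Nuclear-encoded subunits of the respiratory chain were the flattest list. Of 44, 3 rose (Ndufa10, Ndufv1 and Ndufs1, by 0.25, 0.25 and 0.24) and none fell, or 6.82% called. With scaling to the autosomal total none rose and 7 fell. The call of Ndufa10 was lost in 12 of 42 alternatives, 2 genes rose without watered male 5, and 9 rose and 3 fell without the 4 libraries richest in the unnamed gene.

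Steroid, bile acid and vitamin D metabolism was one of the most dimorphic groups. Of 25 tested genes 12 rose and 6 fell, 9 and 5 by at least 2-fold, with a median of 0.30 that was 0.08 without watered male 5. Thus 72% were called, against 30.6% of all genes, and 56% past 2-fold, against 4.53%. Hsd17b2, which inactivates estradiol and testosterone, had 345, 374 and 404 in males and 52.9, 60.1 and 64.4 in females, a log2 difference of 2.64 ± 0.11 (limma adjusted p = 1.46e-16). Hsd17b11 (2.05 ± 0.07), Hsd11b1, which regenerates active glucocorticoid (1.76 ± 0.11), and the 5 alpha-reductases Srd5a1 (1.39 ± 0.11) and Srd5a2 (1.24 ± 0.19), which turn testosterone into dihydrotestosterone, rose. Hsd17b14 (-2.57 ± 0.14), the progesterone-inactivating Akr1c18 (-2.74 ± 0.25) and Baat, which conjugates bile acids (-3.09 ± 0.24), fell by more than 2-fold. The vitamin D enzymes Cyp27b1 and Cyp24a1 had 0.30 and 0.08 and did not pass (limma adjusted p = 0.63 and 0.936). Within the Akr1c family on chromosome 13, Akr1c14 (1.14 ± 0.10) and Akr1c21 (1.02 ± 0.09) rose while Akr1c18, Akr1c20 (-2.71) and Akr1c12 (-1.16) fell. Such paralogs may exchange reads in counting.

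Detoxification of many compounds begins with oxidation by P450 enzymes, whose genes reached far on both sides. Of 42 tested genes of P450 families 1 to 4 and their redox partners, 14 rose and 11 fell (median 0.04), 59.5% called against 30.6% of all genes. Of the list 17 differed by at least 2-fold, 12 higher and 5 lower, or 40.5% against 4.53%. With scaling to the autosomal total 14 rose and 15 fell (median -0.11). Cyp2e1, which oxidizes ethanol and small solvents (chr7:140763739-140774987), had 23815, 33599 and 36551 in males and 1860.5, 1934 and 2629 in females, a log2 difference of 3.94 ± 0.11 (limma adjusted p = 6e-20). Cyp4b1, which activates several pro-toxins, had 60129, 78596 and 88582 in males and 4724, 5226 and 6389.8 in females, a difference of 3.81 ± 0.10 (limma adjusted p = 1.61e-20). Neither overlapped between the sexes. Within the Cyp4a cluster of chromosome 4 the fatty acid hydroxylases divided, with Cyp4a12a at 1399, 2360.4 and 3269.8 in males and 54.5, 60.1 and 85.5 in females and Cyp4a12b at 1.75 ± 0.23, next to the male-low Cyp4a14 and Cyp4a10 (-0.86 ± 0.17). Cyp2d9 (3.06 ± 0.14) and Cyp2b10 (1.95 ± 0.58) rose, and Cyp2c23, named Cyp2c44 in the deposited table, an arachidonic acid epoxygenase, fell (-1.19 ± 0.06). Por, the reductase that serves these enzymes, had 0.05 (limma adjusted p = 0.628).

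All 17 tested genes in the list of the glucuronosyltransferase family and glucuronidase differed. Of these, 12 rose and 5 fell (median 0.63), 6 and 5 by at least 2-fold, against 30.6% called among all genes, and with scaling to the autosomal total 11 rose and 5 fell. In the Ugt2b cluster of chromosome 5, Ugt2b37, Ugt2b38, Ugt2b5 (2.29 ± 0.21) and Ugt2a3 (1.71 ± 0.21) rose and Ugt2b34 fell (-1.79 ± 0.11). Ugt2b38 had 11194, 16124 and 17698 in males and 943, 1017 and 1234 in females, without overlap. In the Ugt1a locus of chromosome 1, Ugt1a1 (-3.91 ± 0.34), Ugt1a10 and Ugt1a6a (-1.23 ± 0.17) fell with Ugt1a2, and Ugt1a6b rose (1.96 ± 0.26). Since these share their last exons, the values of single members are uncertain. Ugt8a, which adds galactose to ceramide, rose (3.54 ± 0.11), and Gusb, the glucuronidase that cleaves such conjugates, rose as well (0.93 ± 0.06).

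Of the genes of glutathione conjugation that differed strongly, most were lower in males. Of 37 genes of glutathione transfer and metabolism 10 rose and 11 fell (8 and 17 with scaling to the autosomal total), 1 and 4 by at least 2-fold. As normalized, 56.8% were called, against 30.6% of all genes, and 13.5% past 2-fold, against 4.53%. Gsta4, which removes the lipid peroxidation product hydroxynonenal, had 533, 613 and 1033 in males and 3295, 3419 and 3994 in females, a log2 difference of -2.41 ± 0.12 (limma adjusted p = 1.16e-14). Gsta2 (-1.89 ± 0.16) and Gsta1 (-2.07 ± 0.49), near-identical paralogs that may exchange reads, and Gsto1 (-1.05 ± 0.10) fell without overlap. Gstp2 rose (1.22 ± 0.21), and so did the enzymes of glutathione supply Gss (0.48 ± 0.09), Gsr (0.49 ± 0.09) and Gclm (0.44 ± 0.06). Among 9 genes of sulfate conjugation 2 rose and 2 fell (44.4% called), none by 2-fold, and with scaling to the autosomal total 2 rose and 5 fell.

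Genes of oxidation and hydrolysis outside the P450 family rose more often than they fell. Of 57 flavin monooxygenases, dehydrogenases, esterases and hydrolases tested, 30 rose and 9 fell (22 and 14 with scaling to the autosomal total), 12 and 4 by at least 2-fold. As normalized, 68.4% were called, against 30.6% of all genes, and 28.1% past 2-fold, against 4.53%. Fmo5, a flavin monooxygenase, had 3167, 4058 and 4698 in males and 259.9, 319 and 336 in females, a log2 difference of 3.70 ± 0.11 (limma adjusted p = 7.41e-20). Ces1f, a carboxylesterase, had 12431, 16669 and 18083 in males and 1649, 1859.5 and 2097 in females, a difference of 3.10 ± 0.09 (limma adjusted p = 1.99e-19). Both were far apart between the sexes. Ces1g (3.75 ± 0.27), the alcohol dehydrogenases Adh7 (3.37 ± 0.31) and Adh1 (2.41 ± 0.13), Nat8, which acetylates cysteine conjugates into mercapturates (1.98 ± 0.15), and the soluble epoxide hydrolase Ephx2 (1.55 ± 0.08) rose. Cbr1, which had 590.3, 741 and 874 in males and 7857, 8289 and 8525 in females, and its neighbour Cbr3 (-1.52 ± 0.14) fell, as did the retinaldehyde dehydrogenase Aldh1a2 (-1.47 ± 0.20).

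Of 24 listed targets of NRF2, the regulator of the antioxidant response, 12 rose and 4 fell (7 and 7 with scaling to the autosomal total). As normalized, 66.7% were called and 12.5% past 2-fold, against 30.6% and 4.53% of all genes. Hmox1, heme oxygenase, had 652, 753 and 889 in males and 279, 314 and 332 in females, a log2 difference of 1.29 ± 0.14 (limma adjusted p = 6.26e-08). Nqo1 (0.38 ± 0.10) and Txnrd1 (0.32 ± 0.07) rose by less, and Gsta4 went the other way. Among 24 nuclear receptors that sense xenobiotics and lipids 6 rose and 3 fell (5 and 5 with scaling to the autosomal total), 37.5% called against 30.6% of all genes. The tubular transcription factors Hnf4a (0.53 ± 0.12) and Hnf4g (0.73 ± 0.14) rose, and the xenobiotic receptor Nr1i2, PXR, fell (-0.92 ± 0.14), with overlap only through watered male 5, which had 288 against 116 to 167 in the other males and 272, 292 and 349 in females.

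Of 22 genes that earlier literature names as raised by androgen in the mouse kidney, 20 rose and 1 fell in males (median 3.76), a list compiled from studies of the same tissue and therefore no independent support. Kap, the kidney androgen-regulated protein, had 301849.8, 339422 and 347666 in males and 97053, 133370 and 163639.8 in females, a log2 difference of 1.39 ± 0.17 (limma adjusted p = 5.45e-07). The sexes did not overlap. Of 35 receptors and targets of sex steroids, growth hormone, prolactin and other hormones 6 rose and 11 fell (5 and 18 with scaling to the autosomal total). As normalized, 48.6% were called and 22.9% past 2-fold, against 30.6% and 4.53% of all genes. Esr1, estrogen receptor alpha, was higher in males, at 327, 379 and 438 in males and 148, 158 and 173 in females (1.24 ± 0.10, limma adjusted p = 2.79e-10). The growth hormone receptor Ghr rose slightly (0.36 ± 0.06), whereas Socs2 (-2.18 ± 0.29) and Cish (-1.97 ± 0.12), feedback inhibitors induced by STAT5, and Igfals, which carries insulin-like growth factor complexes (-1.87 ± 0.14), fell. Bcl6, a repressor that competes with STAT5 in mouse liver, rose (2.64 ± 0.43). Dio1, which activates thyroid hormone, had 312, 438 and 526 in males and 1769.5, 2307 and 2457 in females, a difference of -2.39 ± 0.12 (limma adjusted p = 5.71e-15). Of 23 renin-angiotensin and vasoactive genes 1 rose, Ace (0.61 ± 0.11), and 11 fell (16 with scaling to the autosomal total), 52.2% called as normalized. Ren1 fell with overlap (-0.47 ± 0.17, limma adjusted p = 0.0318), which missed the threshold in 10 of 42 alternatives, and Mme, neprilysin, which degrades several peptides (-0.69 ± 0.09), fell without.

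The sex difference recurred in the 7 males and 5 females kept without water. There 5644 of the 16968 autosomal genes (33.3%) were called, and 3757 of the 5192 watered calls were called in the same direction, which is 72.4% of the watered and 66.6% of the deprived calls. The sign was the same for 97.4% of watered calls, against 67.9% of genes not called. Of the 769 genes with at least 2-fold, 658 were called alike and 749 had the same sign, with a median ratio of deprived to watered difference of 0.9. Fitted with no library in common, the watered mice gave 6810 and the deprived mice 4163 calls, of which 3421 were shared in direction. The log2 differences of both water groups had a Pearson r of 0.856 across genes, which do not count as independent replicates. A difference between the water groups in the sex difference passed for none of the genes by limma, with a smallest adjusted p of 0.0774 and 1218 genes (7.18%) at an unadjusted p below 0.05, by edgeR for none and by DESeq2 for 31. That smallest p was shared by Prlr, with -4.09 in watered and -2.96 in deprived mice (interaction 1.13 ± 0.21), Frzb, a secreted Wnt inhibitor, with 2.20 and 1.55, and Cyp2c23, with -1.19 and -0.69. The treatment label of deprived female 5 disagrees with its title, and counted as watered it gave 5293 watered calls.

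**Figure D4:**
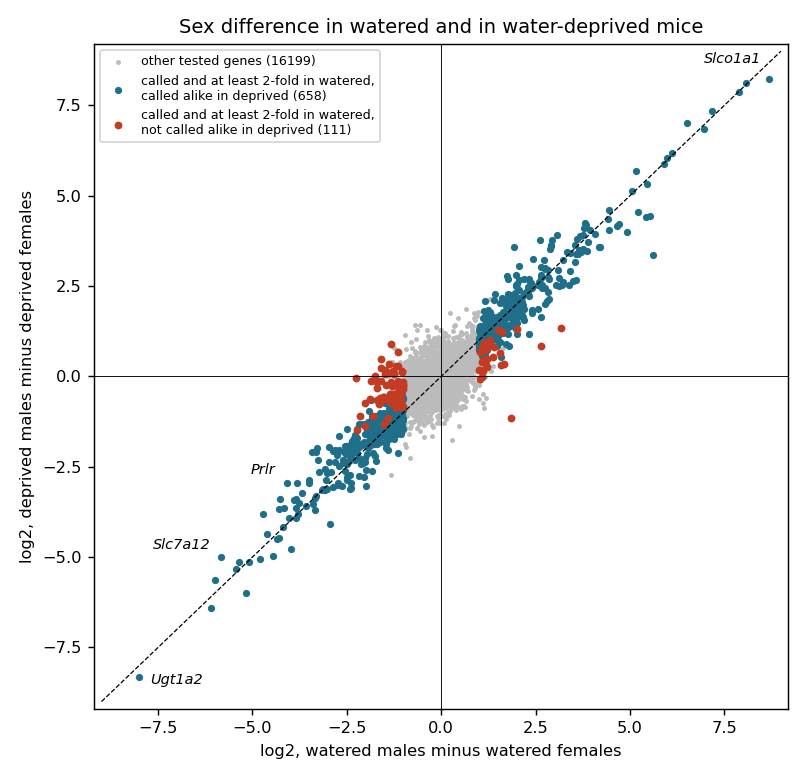
Log2 difference of males minus females in watered mice (x axis) and in water-deprived mice (y axis) for each tested autosomal gene, with the dashed line at equality. Blue points are the 658 genes called with at least 2-fold in watered mice and called alike in deprived mice, red points the 111 others with at least 2-fold, and grey points the remaining 16199 genes.

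With watered male 5 included, spread within a sex was larger in males for the dimorphic genes. Without it this held only for the genes lower in males. Among genes with a mean of at least 50, the within-sex SD of log2 values had a median of 0.197 in males and 0.164 in females for the 249 genes at least 2-fold higher in males, and of 0.262 in males and 0.183 in females for the 179 at least 2-fold lower. The male SD was the larger in 60.6% and 73.7% of those genes, against 47.8% of all tested genes. Without watered male 5 the male median SD was 0.138 for the higher genes, below that of females, and 0.235 for the lower genes. The male SD was then the larger in 35.7% of the higher and 66.5% of the lower genes, against 41.3% of all tested genes. In both sets the larger median SD was then that of the sex with the lower values, where counting error is larger on the log scale. Whether counting error has a part was not tested. No female was left out in this comparison, so the sexes were not treated alike. Over 362 genes higher and 306 genes lower in deprived males, chosen without any watered mouse, each watered mouse was placed between the means of deprived females (0) and deprived males (1). Watered male 5 had median positions of 0.902 and 0.852, the other 5 males 0.997 to 1.065 and 0.946 to 1.028, and the 6 females 0.021 to 0.074 and -0.09 to 0.035. Its read total, 16329973, was the lowest of the 12, while its Xist and Ddx3y values and its cortical balance of 2.37 lay among those of the other males. Whether depth has a part in its position was not tested.

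**Figure D5:**
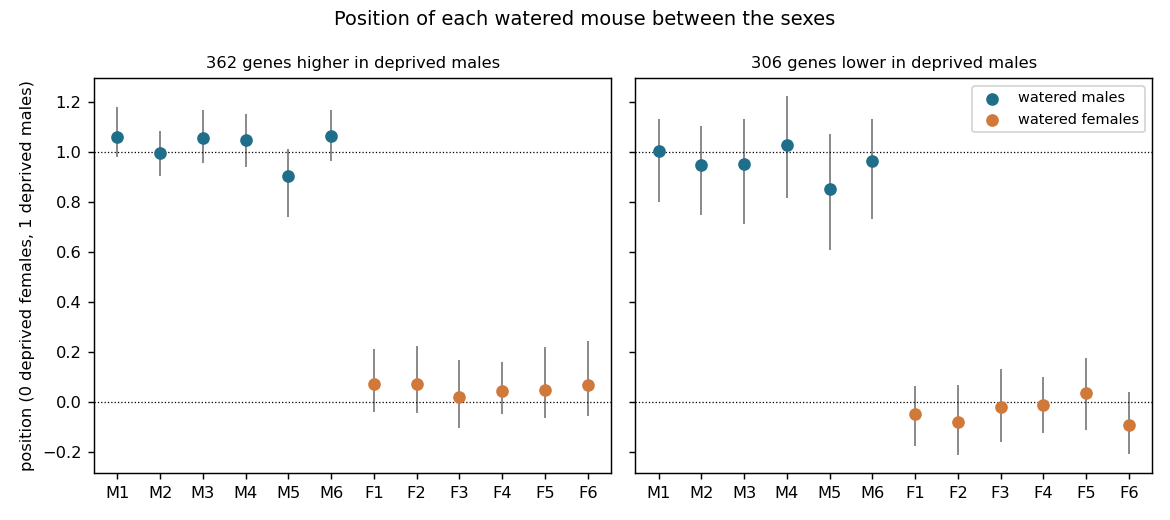
Median position of each watered male (M1 to M6, blue) and watered female (F1 to F6, orange) between deprived females (0) and deprived males (1), over genes at least 2-fold higher (left) or lower (right) in deprived males, with bars from the lower to the upper quartile of the genes. All males lie near 1 and all females near 0, and M5 has the lowest median of the males in both panels.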

How the data were processed

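Poly(A)-selected RNA of 24 kidneys was sequenced. The authors deposited 1 table of DESeq2-normalized counts (a signal that is never negative, reads divided by a size factor per library) for 19399 genes. Per the submitters' processing notes, Trim Galore, featureCounts of Subread and DESeq2 were used with build mm10, with no versions stated. For the aligner, annotation release and use of strand nothing is given in the sources used here, so overlapping and antisense genes cannot be told apart.

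All deposited values were whole multiples of 1 read per library within 0.01 of a read (100% of values), so whole reads were recovered. The steps equalled the reciprocals of DESeq2's own size factors. Library totals were 14411843 to 29398960 reads. Counting error alone limits low values. Gene identifiers were matched to GENCODE M21 (GRCm38) for 19300 genes, and the 99 without a match were left out of autosomal counts.

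Values were tested as log2(value + 1) with limma 3.58.1 in R 4.3.3, fitting 4 group means over all 24 libraries with a robust, trended prior for the variance. Testing was limited to 17592 genes reaching 10 in 5 or more libraries, and p-values were adjusted by Benjamini-Hochberg over all of them, with calls below 0.05. The 16968 autosomal genes were then counted. edgeR 4.0.16 and DESeq2 1.42.0 on the recovered reads were alternatives. The fits were tested on simulated data. Error terms after ± are standard errors of the fit. Named genes were the 15 largest called differences in each direction with a mean of at least 50, leaving out unnamed gene models, from each list at most 4 members, taken by smallest p, and a fixed set of classical kidney genes. A few genes of the lists are counted but not reported here by name. Further list members are named as examples, chosen after their values were seen. The comparison, the lists and the members were chosen with earlier results of these data known. The replicate numbers of the labels did not pair watered samples (correlations of -0.0528 to 0.0535). The labels do not state that libraries come from separate animals, so p-values measure the spread between these samples. Promoter windows came from a RefSeq table of GRCm38.p6 with a window for 11810 of the tested genes, and sequences were aligned with Biopython 1.88.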

Additional observations from a re-analysis of the deposited data

Results flagged for a closer look

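Values that stood apart from the other 5 libraries of their group, by a gap larger than the 95% critical value of Dixon's ratio for 6 values, were found in 45 of 424 groups of 6, or 10.6%. Chance alone marks about 1 group in 20. Of the 44 cases among single genes, 28 were values of watered male 5. No explanation was tested.

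Watered male 5 had the lowest normalized count of its sex for Cyp2j13 (4459, others 7100 to 8547), Apoh (71.8, others 179 to 224), Slc22a6 (15312, others 20354 to 22882), Slc22a22 (1526, others 1972 to 2104) and Slco3a1 (4367, others 6200 to 6898). The same held for Slc17a3 (12866, others 16263 to 16867), Slc17a1 (10994, others 13240 to 14169), Slc16a4 (1680, others 2114 to 2287), Me1 (12951, others 14963 to 15602) and Ces1f (12431, others 16107 to 18083). The same held for Kap (301850, others 334598 to 347666) and Ttr (632, others 1594 to 2118). Watered male 5 had the highest normalized count of its sex for Cyp4a14 (2467, others 249 to 681), Atp13a4 (10.3, others 0 to 3.23), Cubn (11311, others 9081 to 9887), Slc12a3 (42267, others 29759 to 34407) and Acot3 (374, others 192 to 256). The same held for Fabp1 (17.9, others 0 to 4.55), Kynu (314, others 139 to 196), Cyp27b1 (500, others 67.6 to 207), Cyp4a12b (591, others 204 to 319) and Gsta4 (1033, others 533 to 653). The same held for Gsto1 (909, others 608 to 690), Ces1g (1886, others 580 to 831), Nr1i2 (288, others 116 to 167), Fgb (153, others 23.7 to 55) and Havcr1 (100, others 31.9 to 45.6). The same held for Clu (5467, others 4204 to 4408). Watered male 1 had the highest normalized count of its sex for Slc22a8 (10045, others 8649 to 9162) and Slc5a2 (12385, others 10546 to 11170). Watered male 2 had the highest normalized count of its sex for Mylpf (36, others 17.3 to 22.8) and Krt8 (2713, others 2267 to 2429). Watered male 4 had the highest normalized count of its sex for Acsm3 (20553, others 16470 to 17970) and Fga (819, others 540 to 634). Watered male 6 had the highest normalized count of its sex for Fasn (4647, others 2843 to 3420). Watered female 1 had the lowest normalized count of its sex for Cish (919, others 1178 to 1298). Watered female 2 had the highest normalized count of its sex for Slc22a6 (9926, others 8266 to 8738) and Hnf4g (159, others 108 to 125). Watered female 5 had the highest normalized count of its sex for Ugt1a6a (204, others 139 to 155). Watered female 6 had the lowest normalized count of its sex for Ugt1a2 (9980, others 11940 to 12945) and Slc26a4 (2133, others 2569 to 2683). Watered female 6 had the highest normalized count of its sex for Hsd17b14 (794, others 505 to 586), Cyp24a1 (2123, others 536 to 1011) and Gsta4 (3994, others 3295 to 3446). For watered female 6 the share of reads on the unnamed gene ENSMUSG00000119584 was 1.9%, against 0.521% to 0.541% in the others of its sex.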

How the results depend on the processing

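The alternatives were other pseudocounts, filters, scalings, tests, covariates and left-out libraries, 42 settings in all. The counts past 2-fold and by list were added after the data were seen. The settings changed the number of calls, and scaling to the autosomal total also changed their split by direction. No call shared with another setting had the other direction there. With that scaling 75.3% of the calls were shared, and a common shift of all genes can hardly turn a call that both settings make. Leaving out each of the 24 libraries in turn gave 4569 calls (without watered male 4) to 5816 (without deprived male 7), 2436 to 3045 higher and 2133 to 2771 lower in males, 368 to 395 at least 2-fold higher and 356 to 422 at least 2-fold lower, 4763 to 5942 calls in deprived mice, 3454 to 4195 calls shared by both, and 0 to 3 genes whose sex difference differed between the water groups. Scaling to the autosomal total gave 1447 genes higher and 5146 lower, as its construction shifts every difference downwards. Library weights gave 3716 lower, and a threshold of 0.01 gave 1570 lower. Genes at least 2-fold lower numbered 240 with a pseudocount of 10 and 214 with a filter of 50, both of which remove or shrink low values. Genes with a differing sex difference numbered 9 with library weights, 9 without the 4 libraries rich in the unnamed gene, 4 with that gene as a covariate and 31 by DESeq2, and the cause was not tested. The replicate number as a block, in a fit of the watered mice alone, gave 6675 calls (6810 without the block in that fit), 3515 higher and 3160 lower. In a fit of the deprived mice alone it gave 5647 calls (4163 without the block). There numbers 6 and 7 occur in males only, so those libraries have no part in the blocked contrast. The numbers did not pair the watered mice, and pairing was not checked in deprived mice. Of 197 called genes named, 180 passed in the same direction under every setting run, 17 missed the threshold in at least 1, and 0 turned. Only uncalled genes turned: Slc9a3 (-0.014 with scaling to the autosomal total, -0.015 with the cortical balance), Slc5a2 (-0.12 and -0.081), Cyp24a1 (-0.077 with that scaling, -0.17 to 0.37 over left-out libraries), Por (-0.1025) and Fga (-0.059) with that scaling, and Cyp27b1 (-0.035 to 0.54) over left-out libraries. Precision is limited by 6 libraries per sex and, for low genes, by counting error. Without stated use of strand, paralogs, overlapping and antisense genes stay uncertain.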

Other observations

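A few genes of proteins known best from blood plasma are given as examples, chosen after their values were seen, and say nothing of such genes as a group. Higher in males were the protease inhibitors Serpina1a (2.06 ± 0.22), Serpina1b (3.40 ± 0.23), Serpina1d (1.77 ± 0.24) and Serpinf2 (2.31 ± 0.08), the hyaluronan-binding Itih2 (3.50 ± 0.15), the zinc-binding glycoprotein Azgp1 (3.77 ± 0.12) and the thyroxine carrier Ttr (1.86 ± 0.21), on the log2 scale and beside Pzp, Apoh and Hrg. The Serpina1 genes are near-identical and may exchange reads. Lower in males were complement C3 (-1.13 ± 0.19), the complement protease Cfi (-1.02 ± 0.15), the copper protein Cp (-1.19 ± 0.09), transferrin Trf (-1.59 ± 0.11), albumin Alb (-0.77 ± 0.09), the corticosteroid carrier Serpina6 (-4.30 ± 0.33) and Serpina10 (-1.82 ± 0.30). Fibrinogen Fgb fell (-1.21 ± 0.34), while Fga (0.09 ± 0.10) did not pass (limma adjusted p = 0.508).

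Genes that mark injured tubules moved both ways. Of 10 tested, 2 rose and 3 fell (1 and 5 with scaling to the autosomal total), 50% called as normalized against 30.6% of all genes. Their sum was 17944 to 23782 in males and 30456 to 37480 in females. Havcr1, the kidney injury molecule KIM-1 (2.02 ± 0.29), and the keratin Krt8 (0.24 ± 0.06) were higher in males, and Spp1, osteopontin (-1.10 ± 0.09), Sox9 (-0.83 ± 0.26) and Clu, clusterin (-0.45 ± 0.08), were lower. Of 16 immediate early and stress genes 1 passed, the chaperone Hspa8, which was higher in males (0.72 ± 0.08). With scaling to the autosomal total 1 of the 16 rose and 3 fell. Markers of the thin limb gave 1 higher and 5 lower of 10, those of the distal convoluted tubule 0 and 2 of 8 (0 and 6 without the 4 libraries richest in the unnamed gene), of intercalated cells 0 and 3 of 8, of endothelium 0 and 4 of 10, of stroma 0 and 1 of 10 and of the adrenal cortex 1 and 1 of 3. The outer cortex list gave 3 and 2 of 8 and the medulla list 1 and 4 of 9. In this order, from thin limb to medulla, 60%, 25%, 37.5%, 40%, 10%, 66.7%, 62.5% and 55.6% were called, against 30.6% of all genes. With scaling to the autosomal total the thin limb had 7 lower markers, the distal convoluted tubule 5, intercalated cells 7 and endothelium 7. Stroma then had 2, the adrenal cortex 2 and the medulla list 6, and no marker of these lists was higher.

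Of 14055 pairs of adjacent tested protein-coding genes, both members differed by at least 2-fold in 86, in the same direction in 67 pairs and in opposite directions in 19, counts that are given as a description with no number expected by chance. Paralogs are among these pairs, and sharing of reads between them was not tested. Besides the Slc22 genes, the opposite pairs included Cyp4a12b next to Cyp4a14 and Ugt2b34 next to Ugt2b5.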
